A study of Mus musculus with 6 samples.

Results

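Cyclins, cyclin-dependent kinases (CDKs), their inhibitors, the retinoblastoma-E2F switch and the regulators of mitosis were taken as a list of 41 names. Geminin is the protein name of Gmnn, so the list held 40 genes. All 40 were found among the 21887 protein-coding genes of the RefSeq table for the mouse assembly GRCm38 (mm10). A gene was counted for a peak list where a peak's summit, the position of its highest coverage, lay inside the gene or within 1 kb of either end. The genes were put into 15 G1 genes, 15 genes of S phase entry and S phase (with Cdk7, which acts in every phase, placed there by convention) and 10 mitotic genes. DNA ends were mapped by BrITL, in which ends are tagged with biotin-16-ddUTP, pulled down with streptavidin and sequenced. All samples were mouse embryonic fibroblasts of ATR+/- genotype that had been immortalised through passaging and carried Bcl-xL, a survival protein. One condition had DMSO, the vehicle, for 18 h. The other, called treated below, was exposed for 18 h to ATR-45 (1 µM), which blocks the checkpoint kinase ATR, together with aphidicolin (0.2 µM), which inhibits replicative DNA polymerases. The labels do not say whether the line is a single clone, and both conditions lack 1 Atr allele, so neither is a wild-type state. In each condition 2 pull-downs and 1 input were pooled by the authors into 1 peak list, so no value has a replicate error and no test between conditions was possible. The lists hold no expression values, so the fibroblast label was not checked against markers.

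The cell cycle is driven by CDKs, kinases that act only when bound to a cyclin. In G1, cyclin D with Cdk4 or Cdk6 and then cyclin E with Cdk2 phosphorylate the pocket proteins Rb1, Rbl1 and Rbl2, which releases E2F transcription factors and turns on genes for DNA replication. Cyclin B with Cdk1 later drives entry into mitosis, and the anaphase-promoting complex ends it by marking cyclins for destruction. When replication stalls, ATR and Chk1 hold this engine back by restraining the Cdc25 phosphatases.

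The DMSO list held a summit at 25 of the 40 genes (62.5%), against 23.8% of all protein-coding genes by the same rule. By group this was 11 of 15 S genes (73.3%), 9 of 15 G1 genes (60.0%) and 5 of 10 mitotic genes (50.0%). The groups are small, and the differences between them were not tested. The treated list held a summit at 1 of the 40 genes, Ccnd3, against 1.16% of all protein-coding genes, so this count was near the background. The share of genes with a DMSO summit lay above the background in every group. Members with a DMSO summit were not longer than the rest: they had a median length of 14347 bp and those without 15844 bp, against 17169 bp for all protein-coding genes and 25095 bp for protein-coding genes with a DMSO summit.

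**Figure D1:**
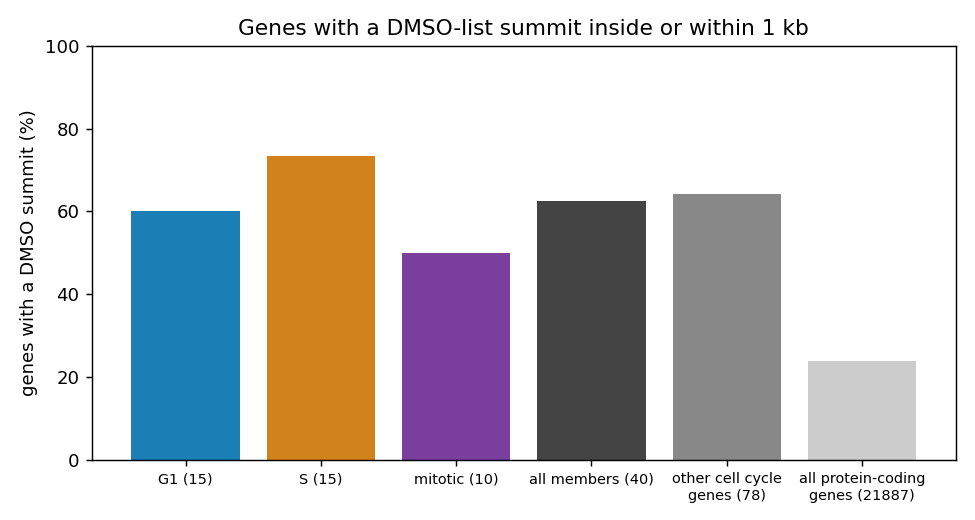
Percentage of genes (vertical axis) with at least 1 DMSO-list summit inside the gene or within 1 kb, for the 3 groups, all 40 members, 78 other cell cycle genes and all 21887 protein-coding genes. All 5 bars of cell cycle genes, from 50.0% to 73.3%, stand above the bar of 23.8% for protein-coding genes.

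Within families the counts were uneven. All 5 CDK genes (Cdk1, Cdk2, Cdk4, Cdk6 and Cdk7), all 3 INK4 inhibitor genes, all 3 Cdc25 phosphatase genes, both E-type cyclin genes and both genes of the atypical repressors E2f7 and E2f8 held a DMSO summit. The counts were 2 of 3 among D-type cyclins, 2 of 3 among A- and B-type cyclins, 2 of 3 among E2f1 to E2f3, 1 of 2 Cip/Kip inhibitors and 1 of 3 pocket proteins. No summit lay at E2f4, E2f5 or E2f6. Of the 4 genes of the spindle checkpoint and Aurora B, Mad2l1 alone had one, and of Cdc20, Fbxo5, Skp2 and Gmnn, Fbxo5 alone. Families this small give no measure of a difference between them.

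The summits lay at gene starts. The RefSeq promoter table lists a start for 29 of the members, and 21 of these (72.4%) had a DMSO summit within 1 kb of a listed start, against 21.4% of the 17492 protein-coding genes with one. At the far end of the gene, 0 of the 29 had a summit within 1 kb, against 1.37% of those genes, so this count was near the background. Of the 23 DMSO summits at these members, 22 (95.7%) lay within 1 kb of a listed start, against 80.1% of all such pairs of a gene and a summit. Upstream of the start were 14 of the 22 (63.6%), at 42 to 875 bp, and 8 lay 193 to 333 bp downstream. Over all protein-coding genes 64.5% of such summits were upstream. The median distance was 288 bp at members and 278 bp over all. Among summits already within 1 kb of a start, the side and the distance were close to those over all protein-coding genes, without a test of the difference. For the 4 members with a DMSO summit but no listed start (Ccna2, Ccnd2, Ccne2 and Cdc25c), distances below are to the nearest gene end.

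**Figure D2:**
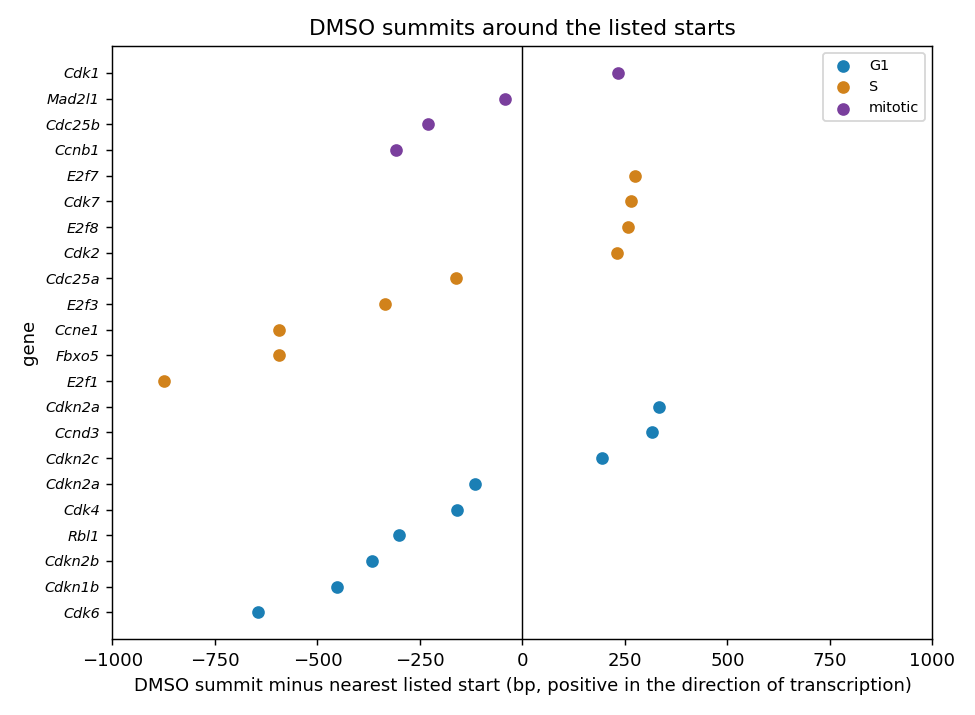
Position of each DMSO summit (horizontal axis, bp from the nearest listed start, positive along transcription) for the 22 summits within 1 kb of a start, 1 row per summit, coloured by group. No summit falls between 42 bp upstream and 193 bp downstream of a start, and Cdkn2a appears in 2 rows because each of its listed starts has a summit.

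The 250 bases before the start are shown for 6 of these genes. Most of the summits near a start lay outside this stretch, either farther upstream or downstream of the start. E2f3, Cdk4, Cdkn2a, Cdkn2b and Fbxo5 had the members' peaks of highest fold among those whose window lies outside the gene (allowing 10 bases inside), and Mad2l1, chosen after its values were seen, had the summit nearest to its start. The windows, from RefSeq on GRCm38.p6, are chr13:29986064-29986313 (minus strand), chr10:127063285-127063534 (plus), chr4:89294620-89294869 (minus), chr4:89311033-89311282 (minus), chr10:5805466-5805715 (minus) and chr6:66534971-66535220 (plus). Capitals mark matches on either strand to the E2F core (as TTCGCGC or as TTGGCGC, and also as TTCCCGC or as TTGCCGC), the cell cycle homology region, CHR, of mitotic genes (TTTGAA or, with a CG, TTCGAA), the NF-Y box CCAAT, the Sp box GGGCGG and the AP-1 word TGANTCA.
E2f3: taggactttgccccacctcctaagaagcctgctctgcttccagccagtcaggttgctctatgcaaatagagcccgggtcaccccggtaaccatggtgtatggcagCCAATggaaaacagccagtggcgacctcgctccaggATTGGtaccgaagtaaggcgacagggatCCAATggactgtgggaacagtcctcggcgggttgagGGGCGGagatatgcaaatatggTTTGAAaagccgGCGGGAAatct
Cdk4: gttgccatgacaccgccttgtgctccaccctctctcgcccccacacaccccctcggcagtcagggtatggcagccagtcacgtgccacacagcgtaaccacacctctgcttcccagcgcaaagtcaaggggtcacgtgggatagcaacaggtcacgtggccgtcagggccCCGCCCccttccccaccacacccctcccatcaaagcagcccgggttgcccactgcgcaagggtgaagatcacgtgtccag
Cdkn2a: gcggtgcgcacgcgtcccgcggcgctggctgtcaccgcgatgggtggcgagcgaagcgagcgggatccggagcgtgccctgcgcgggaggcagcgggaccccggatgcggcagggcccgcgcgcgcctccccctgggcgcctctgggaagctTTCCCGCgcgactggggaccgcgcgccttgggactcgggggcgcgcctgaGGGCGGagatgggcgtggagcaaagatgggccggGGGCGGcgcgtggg
Cdkn2b: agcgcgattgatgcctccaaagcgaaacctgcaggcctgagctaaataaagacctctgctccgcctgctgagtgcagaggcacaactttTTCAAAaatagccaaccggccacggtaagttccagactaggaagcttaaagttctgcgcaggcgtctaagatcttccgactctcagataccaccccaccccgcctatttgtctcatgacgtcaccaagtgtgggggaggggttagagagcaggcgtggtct
Fbxo5: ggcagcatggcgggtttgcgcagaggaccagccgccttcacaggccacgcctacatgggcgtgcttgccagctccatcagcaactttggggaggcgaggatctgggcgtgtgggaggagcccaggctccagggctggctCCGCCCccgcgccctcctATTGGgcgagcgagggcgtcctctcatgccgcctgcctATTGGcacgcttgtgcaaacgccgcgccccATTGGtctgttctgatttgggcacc
Mad2l1: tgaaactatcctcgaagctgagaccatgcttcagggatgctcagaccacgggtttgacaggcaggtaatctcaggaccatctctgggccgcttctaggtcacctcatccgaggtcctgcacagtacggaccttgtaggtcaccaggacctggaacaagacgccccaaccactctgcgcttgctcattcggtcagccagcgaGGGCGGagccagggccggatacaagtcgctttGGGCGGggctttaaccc
The summit lay inside the printed window at Cdk4, 159 bp before the start, and at Mad2l1, 42 bp before it. It was farther upstream at E2f3 (336 bp), Cdkn2b (367 bp) and Fbxo5 (595 bp), and 333 bp downstream of the start at Cdkn2a. The E2f3 window holds 3 CCAAT boxes and an E2F core that begins 11 bases before the start. Fbxo5 also has 3 CCAAT boxes, 93, 55 and 25 bases before the start, but no E2F core in this window. Mad2l1 and Cdk4 show only GGGCGG, 2 matches and 1 match.

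Over the 35 listed promoters of the 29 members, an E2F core was found in 10 (28.6%), against 10.0% of 21263 promoters of protein-coding genes. CCAAT was found in 18 (51.4%, against 35.4%), a CHR word in 10 (28.6%, against 15.9%), GGGCGG in 24 (68.6%, against 42.6%) and the AP-1 word in 0 (against 6.13%). A DMSO summit lay within 1 kb of the start at 22 of the 35, and these can be set beside the 4392 protein-coding promoters chosen in the same way. An E2F core was in 10 of the 22 (45.5%), against 17.7% of the 4392. CCAAT was in 11 (50.0%, against 42.4%), a CHR word in 4 (18.2%, against 9.49%), GGGCGG in 18 (81.8%, against 72.6%) and the AP-1 word in 0 (against 3.53%). The 10 promoters of members without a DMSO summit held an E2F core in 0, CCAAT in 7, a CHR word in 6 and GGGCGG in 4. Over all 21263 promoters, with or without a summit, the shares were 10.0%, 35.4%, 15.9% and 42.6% in the same order. The counts for the E2F core and GGGCGG were thus near that background, and 10 promoters are too few to measure a difference. Median G+C was 64.4% at the 22 member promoters and 64.0% at the 4392, but 54.4% at the 10 promoters of members without a DMSO summit and 55.6% over all promoters. The median number of CG dinucleotides in the 250 bases was 20, 20, 11 and 10 in the same order. These matches describe letters only, the differences were not tested, and whether G+C accounts for the shares was not tested.

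The 27 distinct DMSO peaks at members were of ordinary strength for their list. Fold enrichment is the authors' value at the summit, pull-down over input, and is used here only to rank peaks within a list. It ran from 6.24 (Ccnd2) to 15.8 (E2f1 and E2f3), with a median of 11.96 against 10.99 for all 6444 DMSO peaks. The median was 12.1 at G1 genes, 12.2 at S genes and 10.99 at mitotic genes. Of the 27, 16 were above the list's median. Peak widths ran from 1459 to 6303 bp with a median of 2811 bp, against 2855 bp for the list. The pull-down fragments over each summit were recovered from the caller's fold and p, and ran from 35 to 64 with a median of 49, the same as the list. The list's minimum was 35 fragments, which E2f7 had, and Cdk2 had 36, so these 2 lay at its edge. Input coverage was at the genome background of 2.32 fragments, its lowest possible value, at 21 of the 27 peaks (77.8%). This held for 69.3% of the whole list, and the difference was not tested. Among the 27, input coverage was highest, at 6 fragments, at Ccnd2.

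**Figure D3:**
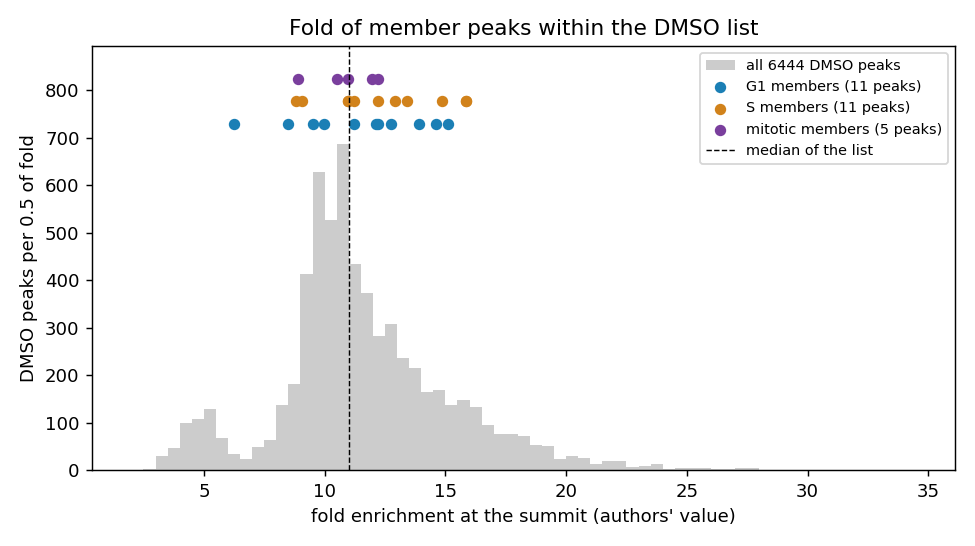
Histogram of the authors' fold enrichment (horizontal axis) over the 6444 DMSO peaks (vertical axis, peaks per 0.5 of fold), with the member peaks of each group as points above it and the list's median as a dashed line. Member points lie between 6.24 and 15.8, on the main hump of the list, and none reaches its upper tail.

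Among the D-type cyclins, which couple growth signals to G1, Ccnd1 had no summit of either list near it: the nearest DMSO summit was 85.9 kb away and the nearest treated summit 17.5 Mb. Ccnd2 had 1 DMSO summit inside the gene, 2195 bp from an end, in a peak 6303 bp wide that was the widest of the 27. Its fold of 6.24 was the lowest of the members, although its 53 fragments were above the median, because its input coverage of 6 fragments was the highest. The long non-coding gene 9330179D12Rik overlaps this summit.

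Ccnd3 had summits of both lists. Its DMSO peaks were chr17:47510042-47512878 (fold 12.7, −log10 q 38.2, 62 fragments), 5795 bp into the gene, and chr17:47592168-47597295 (fold 11.2, 45 fragments), whose summit lay 315 bp after the inner listed start. A further DMSO summit, 2596 bp before the outer start and so outside the window, lay in the window of the neighbour Taf8 (fold 11.5). The treated peak, chr17:47517601-47518089, was 489 bp wide and lay 12664 bp into the gene, 6.87 kb from the nearest DMSO summit, and overlapped no DMSO peak. Its fold was 4.60, below the treated median of 5.19, and its −log10 q of 3.72 was close to the list's lowest, 3.38. With 39 fragments it stood 7.59 times over the treated pull-down background of 5.14 fragments. It was thus a weak peak of its list, away from every listed start.

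The partner kinases both had a summit within 1 kb before a listed start. At Cdk4 the peak chr10:127061250-127065253 (fold 15.1, −log10 q 43.2, 61 fragments) had its summit 159 bp before the start. At Cdk6, a gene of 190005 bp, the summit was 645 bp before its listed start but inside the gene, 2244 bp from the nearest end. The peak had a fold of 12.2 and 49 fragments, and its summit also lies in the window of the non-coding gene Gm36470. The rest of this long gene held no DMSO or treated summit.

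Inhibitors of these kinases held several peaks. Cdkn2a makes p16Ink4a, which blocks Cdk4 and Cdk6, and p19Arf, which stabilises p53, from separate first exons, and Cdkn2b beside it makes p15Ink4b. Each of the 2 listed starts of Cdkn2a had its own DMSO summit, 333 bp after the outer start (chr4:89292791-89296683, fold 14.6, 59 fragments) and 115 bp before the inner one (chr4:89281424-89283353, fold 9.53, 38 fragments). Cdkn2b had a further one, 367 bp before its start (chr4:89309789-89312199, fold 13.9, 56 fragments). The 3 summits spanned 29.1 kb, and all had input coverage at the background. Fibroblasts immortalised by passage often lose Cdkn2a or p53 function. Fragments over this locus were recovered here, and its sequence in these cells was not tested. Cdkn2c, which makes p18Ink4c, had a weaker peak 193 bp after its start (fold 8.50, 41 fragments, input coverage 3 fragments).

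Cdkn1b, which makes the CDK inhibitor p27Kip1, had a DMSO summit 452 bp before its start (fold 12.1, 59 fragments, input coverage 3 fragments). The strongest peak with a summit within 10 kb of any member was chr6:134924718-134930935, with fold 21.7, −log10 q 72.0 and 88 fragments. Its fold was one that 98.6% of the list's peaks did not exceed. The peak overlaps both Cdkn1b and Lockd, a long non-coding gene. Its summit lay 3134 bp past the other end of Cdkn1b and 433 bp from the end of Lockd. That summit does not count for Cdkn1b under the 1 kb rule. Cdkn1c, an imprinted gene for p57Kip2, had none, the nearest DMSO summit being 88.4 kb away.

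**Figure D4:**
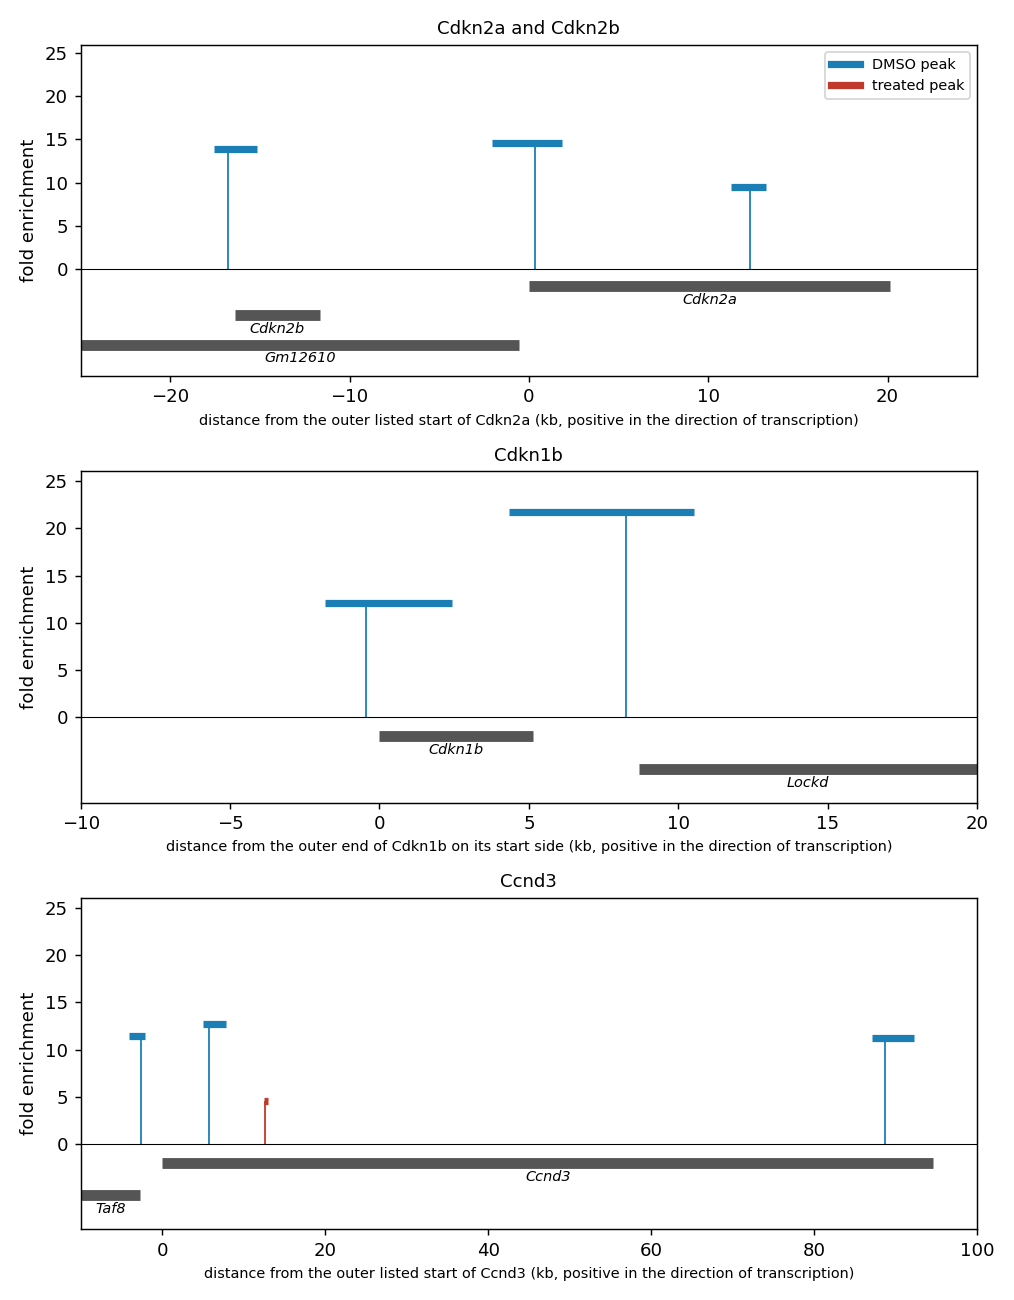
Fold enrichment (vertical axis) of DMSO peaks (blue) and treated peaks (red) against distance in kb from the outer start side of Cdkn2a, Cdkn1b and Ccnd3; bars span each peak, thin lines mark summits and grey bars mark genes. DMSO peaks stand at both starts of Cdkn2a and at Cdkn2b, and the highest (fold 21.7) has its summit between Cdkn1b and Lockd. The only treated peak, in Ccnd3, has a fold of 4.60, and folds are not ranked between the lists.

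The pocket proteins, which hold E2F factors silent, were mostly without a summit. Rbl1 (p107) had one 301 bp before its start (fold 9.99, 40 fragments). Rbl2 (p130) was 10042 bp from the nearest DMSO summit, and Rb1, a gene of 133094 bp, was 2.51 Mb from it, the farthest of any member. E2f4 and E2f5, which work with pocket proteins as repressors, had none within 1 kb. For E2f4 the nearest DMSO summit was 8615 bp away, at the ends of 4931428F04Rik and Exoc3l (fold 14.6), and for E2f5 it was 1.58 Mb away.

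In the S group, the activating factors E2f1 and E2f3 had the joint highest fold of the members, 15.8, each with 64 fragments and −log10 q of 45.9. The E2f3 peak spanned chr13:29982602-29987900 with its summit 336 bp before the start. The E2f1 peak spanned chr2:154567819-154572149, with its summit 875 bp before the listed start and 409 bp outside the gene. E2f2, the third activator, was 23.8 kb from the nearest DMSO summit, and at 90.3 kb it was the closest of the members to a treated summit after Ccnd3. E2f7 and E2f8, repressors that E2F itself induces, had summits 275 and 258 bp after their starts, with folds of 8.80 and 12.2 and 35 and 49 fragments. E2f6, a repressor tied to Polycomb proteins, was 67.5 kb from a DMSO summit.

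Cyclins E1 and E2, which start S phase with Cdk2, both had a peak. Ccne1 had its summit 593 bp before the start (fold 10.99, 44 fragments). At Ccne2 it was 1617 bp inside the gene from the nearest end, in a peak shared with the non-coding gene A630034I12Rik (fold 14.9, 60 fragments). Cdk2 had a summit 230 bp after its start, with fold 9.05, 36 fragments and −log10 q of 18.5, the lowest value in the list. The table places Cdk2 inside the coordinates of Pmel, so that peak counts for both genes. A stronger peak past the other end of Cdk2 (fold 17.1) has its summit 1570 bp outside the gene, in the windows of Rab5b and Pmel. Ccna2, cyclin A2 of S phase and G2, had a summit 717 bp inside the gene from an end (fold 13.4, 54 fragments) that also lies in the window of its neighbour Bbs7.

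Cdc25a removes inhibitory phosphates from CDKs and is degraded under ATR and Chk1 signalling. Its DMSO summit was 162 bp before the listed start (fold 10.99, 44 fragments). Fbxo5 (Emi1), an inhibitor of the anaphase-promoting complex, had one 595 bp before its start (fold 12.9, 52 fragments). Cdk7, which phosphorylates other CDKs and RNA polymerase II, had one 264 bp after its start (fold 11.2, 45 fragments). Skp2, which targets p27 for destruction, and Gmnn, which blocks a second round of replication licensing, lay 41.4 and 15.7 kb from the nearest DMSO summit.

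In the mitotic group, Cdk1 and its cyclin Ccnb1 each had a summit, 232 bp after the start (fold 10.99, 44 fragments) and 308 bp before it (fold 8.91, 43 fragments, input coverage 3 fragments). Ccnb2, the other B-type cyclin, was 121 kb from a DMSO summit. Cdc25b had a summit 230 bp before a listed start (fold 10.5, 42 fragments), and Cdc25c, which activates Cdk1, had one 100 bp outside an end (fold 11.96, 48 fragments). Mad2l1, which holds anaphase until chromosomes are attached, had the summit closest to its start (fold 12.2, 49 fragments).

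The remaining checkpoint genes had no summit within 1 kb. Bub1 and Bub1b, kinases of the same checkpoint, were 77.7 and 119 kb from a DMSO summit. Cdc20, which activates the anaphase-promoting complex, was 5249 bp from one, in a peak at its neighbour Elovl1 (fold 13.9). Aurkb, the kinase of the chromosomal passenger complex, was 4456 bp from one, in a peak 7375 bp wide over 4 transfer RNA genes (fold 11.6). Just inside the 1 kb limit the farthest summits outside a gene were at Fbxo5 and Ccne1 (595 and 593 bp), and just beyond it came Aurkb, Cdc20 and E2f4. With a limit of 10 kb, 28 of the 40 genes had a DMSO summit, against 29.9% of all protein-coding genes.

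The distances from these genes to treated summits have no background, since they were not computed for all protein-coding genes. They are thus not read as a trait of the members. Ccnd3 apart, the distance ran from 90.3 kb (E2f2) to 17.5 Mb (Ccnd1), with a median of 1.88 Mb. None of the 27 DMSO peaks at members overlapped a treated peak, against 2.90% of all DMSO peaks, so the count of 0 was near that background. The DMSO member peaks stood 12.2 to 22.3 times over the DMSO pull-down background of 2.88 fragments. The weakest peak of the whole treated list stood 6.81 times over its own background of 5.14 fragments. Both lists had the same minimum of 35 fragments, so the lowest ratios differ through the backgrounds and are not read as a trait of the members. The DMSO list held 6444 peaks and the treated list 491, and since each condition is 1 pooled list, treatment and library cannot be told apart.

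**Figure D5:**
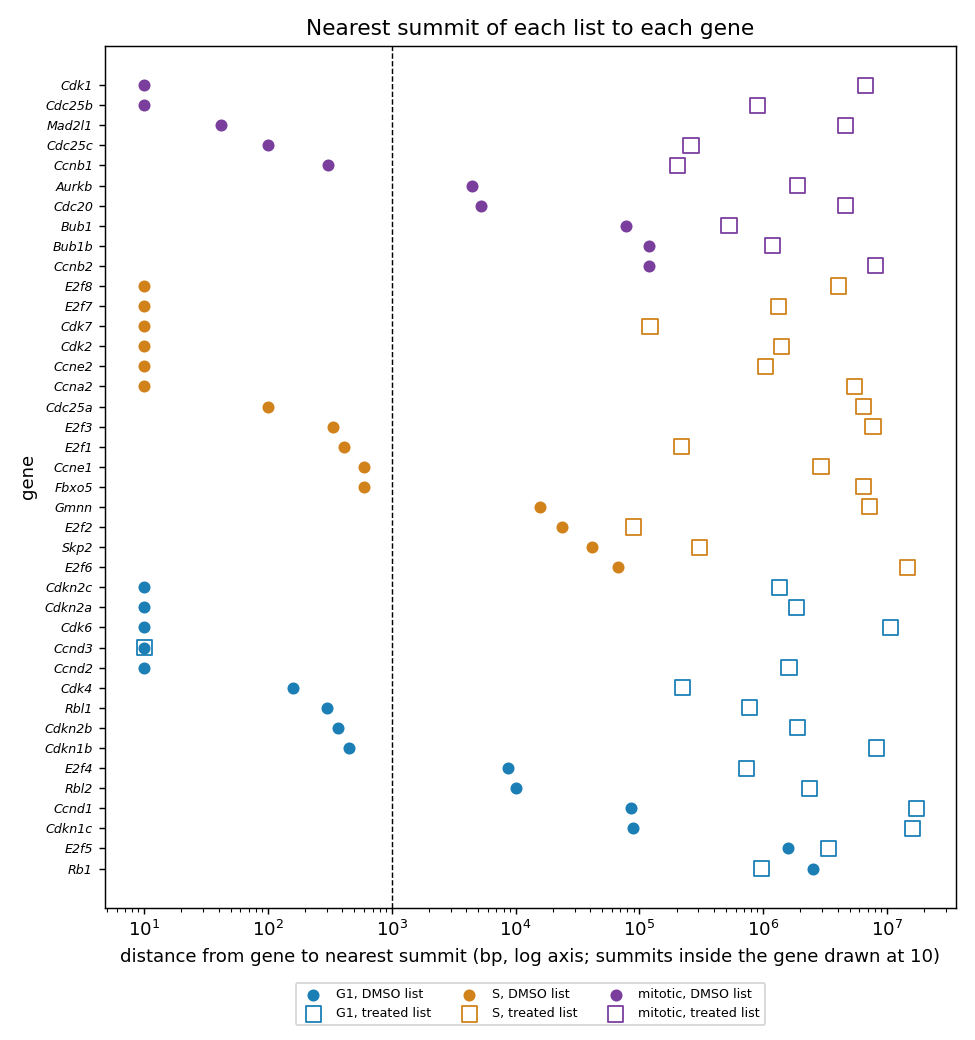
Distance from each member gene (rows, by group) to the nearest summit of the DMSO list (filled circles) and the treated list (open squares), in bp on a log axis, with summits inside the gene drawn at 10 and the 1 kb limit dashed. The 25 genes left of the line by their circles have a DMSO summit, and only Ccnd3 has its square there.

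Many other cell cycle genes also had a DMSO summit. Of 78 further cyclin, licensing, ubiquitin ligase and mitosis genes, 50 (64.1%) had one by the same rule, against the 23.8% above and 62.5% of the members. Without summits shared with another protein-coding gene, the shares were 36 of 78 (46.2%) and 23 of 40 members (57.5%), against 16.8% of all protein-coding genes. The difference between both lists was not tested. The peaks of highest fold were at Mcm7, a subunit of the replicative helicase (22.0, 110 fragments, shared with the window of Ap4m1), Anapc5, a subunit of the anaphase-promoting complex (20.2), Cdt1, which loads that helicase and is held back by geminin (18.5), Wee1, the kinase that opposes Cdc25 (18.3), and Ube2c, a ubiquitin-conjugating enzyme of mitosis (17.8). All 5 of these DMSO folds were above the highest at the 40 members, 15.8. A treated summit lay at 3 of the 78 (3.85%), against 1.16% of all protein-coding genes: Anapc5, Mcm7 and Ube2c, with folds of 5.43, 4.94 and 4.64. This share rests on 3 genes, and the difference was not tested. The folds at Mcm7 and Ube2c were below the treated median of 5.19. At Ube2c the −log10 q of 3.66 was close to the treated list's lowest, 3.38.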

How the data were processed

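The members and gene lists were chosen with earlier results of these data known. Each condition's pooled peak list sets its 2 pull-downs against its input, per the deposited peak names. The submitters' processing notes name mm10 and, without roles or settings, MACS2 2.1.0, Picard 1.141, SAMtools 0.1.19, STAR 2.5.2a and bcl2fastq 2.17.1.14. The deposited values are a fold enrichment (a ratio), −log10 p and −log10 q from the authors' caller. The deposited score only restates −log10 p, scaled and truncated, and was not used. Gene ends came from RefSeq (49943 genes on 21 chromosomes). Starts and sequences came from the RefSeq promoter table, where 11 members have no entry.

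Summits were counted inside genes or within 1 kb. Overlap of peaks needed 1 bp. No test was run, since there are no replicate values. Pull-down fragments and input coverage were recovered by inverting the caller's fold (pileup plus 1 over background plus 1) and Poisson p, where the pileup is the number of fragments times a scaling step of 0.805 (DMSO) or 0.439 (treated) found from the values, with a tolerance of 0.02 on whole fragments; 100% of the peaks in each list could be solved. Input coverage cannot fall below the genome background. On data simulated with a background and a step close to those of the DMSO list, 100% of 300 peaks were solved and right. The treated list's background and step were not simulated. Summits planted inside the windows of 200 genes were 100% found, which checks only that the counting worked. Every member with a summit is named with its values, and members without one with their distance. Promoters were printed by fold, leaving out E2f1, whose window lies inside the gene. Alternatives were other windows, overlap in place of summits, stricter thresholds and leaving out shared summits. The versions were pandas 2.3.3, SciPy 1.17.1, NumPy 2.4.6 and Python 3.11.15.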

Additional observations from a re-analysis of the deposited data

How the results depend on the processing

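No paired analysis was possible because each condition is 1 pooled list with no value per sample, and for the same reason no replicate could be left out. Counting summits inside gene bodies alone left 13 of 40 members (32.5%, against 13.2% of protein-coding genes), with 5 G1, 6 S and 2 mitotic genes, and 25 of the 78 other genes, since summits outside the gene are then not counted. Peaks at or above the list's median fold left 15 members (37.5%, against 14.3%), with 7 S and 2 mitotic genes, and 29 other genes. The 1 member with a treated summit became 0 within 1 kb of gene ends, at or above the median fold, at −log10 q of at least 5, and at the lowest −log10 q of the DMSO list. Over all genes of the table, non-coding ones included, 12.9% had a DMSO summit. The other counts stayed within 1.5 times of those reported. Leaving out summits shared with another coding gene gave 23 members (57.5%, against 16.8%) and 36 other genes (46.2%). The pooled lists limit every value to what passed an unstated rule of entry at 35 fragments or more.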
